A study of Mus musculus with 2 samples.

Results

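The cells described here are Ret Wnt11 cells of the newborn mouse kidney, 53 cell barcodes out of 9735 in all, read as ureteric tip cells. A barcode was a member when it held at least 2 unique molecular identifiers (UMIs, 1 per captured transcript) of Ret and at least 1 of Wnt11. It also had to hold no Aqp2 UMI, at most 1 Six2 UMI, no Pecam1 UMI and at most 2 Col3a1 UMIs, so that collecting duct, nephron progenitor, endothelial and stromal barcodes stayed out. These 6 genes chose the members, and their values are given only as a description. The rule found 34 members among 5529 barcodes in replicate 1 and 19 among 4206 in replicate 2.

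Ureteric tips are the growing ends of the tree that becomes the collecting duct system. They carry the receptor tyrosine kinase RET and its co-receptor GFRA1, which bind GDNF released by the nephron progenitors around each tip, and RET signalling drives branching through the ETS factors ETV4 and ETV5. Tip cells secrete WNT11, which is known to sustain Gdnf in the progenitors. As the tree grows, cells left behind the tip lose Ret and become trunk, and the trunk later matures into principal and intercalated cells of the collecting duct.

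Both libraries were made from whole kidney at postnatal day 0 with the genotype Rbpj c/+ ; Foxd1cre/+. They therefore form 1 group with n = 2, every cell comes from an animal that carries both alleles, and the alleles have no control group here. Foxd1 drives Cre in stromal progenitors, which are not the lineage of the tips, and Rbpj encodes the DNA-binding partner of the Notch receptors. The labels do not say whether a library is 1 animal or a pool. The p-values below rest on how differences between cell classes vary from 1 library to the other, over 8 classes fitted together. That spread may be technical.

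Depth set how well each cell was seen. Barcodes needed at least 3000 UMIs, 500 genes and at most 20% mitochondrial UMIs, and the 2 libraries shared 6 such barcodes. Tip cells held 11245 to 222381 UMIs in replicate 1 (median 39364.5) and 13411 to 55742 in replicate 2 (median 30291), against medians of 15016 and 20007.5 over all passing barcodes. No tip cell was called a doublet by Scrublet. Summed tip UMIs came to 1951513 and 579895, so replicate 2 carries the coarser values. The deepest cells of replicate 1 held 222381, 202409 and 187244 UMIs, so its sums lean on few cells.

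Tip cells made up 0.615% of passing barcodes in replicate 1 (exact 95% binomial interval 0.426 to 0.858%) and 0.452% in replicate 2 (0.272 to 0.705%). The 2 intervals overlap. They cover counting error only, and the share depends on the rule: with Ret at least 4 and Wnt11 at least 2 UMIs the mean of the libraries was 0.347% in place of 0.533%.

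The edge of the rule was examined in barcodes just outside it. Another 20 and 24 barcodes met the Ret and Wnt11 limits but failed an exclusion, mostly the one on Aqp2, which 13 and 19 of them failed. They were very deep, with median totals of 128794.5 and 177156 UMIs. Those that failed on Aqp2 alone, 9 and 12 barcodes, held Aqp2 at 41.7 and 41.3 counts per 1000000 UMIs (CPM), against 1395 and 1042 CPM in the Aqp2 cells described below and 82.8 and 126 CPM in barcodes of at most 100 UMIs, which sample free RNA. Their Etv4 stood at 357 and 274 CPM, against 304 and 229 CPM in the members. Other genes were lower in them than in the members in both libraries, Slco4c1 at 261 and 241 CPM against 342 and 329 CPM and Calb1 at 872 and 821 CPM against 1326 and 1357 CPM. Among the members, the 5 and 1 with exactly 2 Ret UMIs and the 6 and 2 with exactly 1 Wnt11 UMI were the ones nearest the limit on the other side. Only 2 and 1 barcodes had Wnt11 but a single Ret UMI, and their Etv4 was 0 in both libraries. A further 6 and 3 barcodes met the Ret limit with no Wnt11 UMI and held Etv4 at 88.2 and 137 CPM.

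The label was checked on lists of marker genes. Of 21 genes taken from the literature as tip genes, which leave out Ret and Wnt11, 21 and 20 were detected, with summed levels of 5099 and 3832 CPM in tip cells. The next highest class in replicate 1 reached 1341 CPM (Slc34a1 cells of the proximal tubule), and in replicate 2 it was 1159 CPM (Aqp2 cells). Lists of other cell types were read next, and some of them hold genes that the rule itself kept low. The 10 nephron progenitor markers summed to 26.6 and 6.90 CPM with Osr1 and Meox1 at 0 in both libraries, against 2570 and 2749 CPM in Six2 Cited1 cells. That list holds Six2, which the rule limits, and Cited1, and the progenitors were gated on both, so part of this contrast was fixed by the gates. The 7 endothelial markers summed to 11.8 and 10.3 CPM with Pecam1 at 0 by the rule, the 10 stromal markers to 11.3 and 31.0 CPM with Tcf21 and Dcn at 0 in both libraries and Col3a1 limited by the rule, and the 7 podocyte markers to 15.4 and 17.2 CPM. By the test described below, 2 of the 5 tested endothelial markers, Kdr and Plvap, were higher than in Aqp2 cells and none lower. Kdr alone was higher than in Six2 Cited1 cells. Over all tested genes, 11.7% and 12.5% were higher in these comparisons. The 7 immune markers summed to 33.3 and 34.5 CPM, of which Ptprc gave 28.7 and 32.8 CPM and was higher than in Six2 Cited1 cells (0.949 and 0.585 CPM), while C1qb, Tyrobp and Cd52 were at 0 in both. Intercalated cell markers, 7 genes, summed to 4.61 CPM in replicate 1 and 62.1 CPM in replicate 2, so replicate 2 stands higher, with Slc4a1 and Aqp6 at 0 in both libraries. All 7 were called lower than in Aqp2 cells, and Slc26a4 alone was called higher than in Six2 Cited1 cells. Not all lists were low. The 7 markers of the loop and distal tubule summed to 2424 and 2614 CPM in tip cells, against 107 and 204 CPM in Six2 Cited1 cells and 2882 and 4065 CPM in Aqp2 cells, nearly all of it from Calb1 and Wfdc2 (1070 and 1240 CPM), both higher than in progenitors. The 7 early nephron markers, which include Lhx1, Pax8 and Jag1, summed to 809 and 624 CPM, against 704 and 375 CPM in Six2 Cited1 cells and 527 and 677 CPM in Aqp2 cells.

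Comparisons with 2 other classes were made, on counts summed per library and class. The first was with the 210 and 188 Aqp2 cells (at least 3 Aqp2 UMIs), taken for the mature end of the same lineage. The second was with the 375 and 207 Six2 Cited1 nephron progenitors, the neighbours that supply GDNF. Both use the same tip sums, so their results are not independent. A planned minimum of 20 cells per library and class was not met by the tip cells of replicate 2, and 10 was used instead, a change made after the cell numbers were seen. Tests are edgeR's quasi-likelihood test with the library as a block and Benjamini-Hochberg adjustment over 17401 genes, with a threshold of 0.05, and fold changes below are tip over the other class. The class meant as ureteric trunk (Wnt9b and Gata3 without Ret, Wnt11 or Aqp2) had 10 and 9 cells and was only described. Its Atp6v1g3, an intercalated cell gene, stood at 1990 and 1334 CPM and its Slc12a3, a distal tubule gene, at 0 and 1728 CPM, so it is not called trunk here.

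The Aqp2 cells are not principal cells alone. Intercalated markers summed to 1238 and 857 CPM in them, which is higher than in tip cells in both libraries, and the part this plays was examined by leaving out Aqp2 cells with more than 1 Foxi1 or Atp6v1g3 UMI. That left 116 of 210 and 122 of 188 cells, with 3136201 of 10790492 and 4874729 of 10744131 UMIs. With both libraries together, Aqp2 cells also held Slc12a3 at 74.4 CPM and Trpv5, of the connecting tubule, at 49.8 CPM. The part of distal and connecting tubule cells was not tested. Ret Wnt11 barcodes that failed the tip rule also sit in the compared classes. They hold 2.76% and 8.49% of the UMIs of Aqp2 cells and 0% and 5.39% of those of Six2 Cited1 cells. Ret in Aqp2 cells was 4.36 and 18.6 CPM with them and 3.05 and 1.83 CPM without them, so most of the Ret in the replicate 2 sum came from 5 of its 188 cells.

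Against Aqp2 cells, 4938 genes (28.4% of those tested) passed the test, 2038 higher (11.7%) and 2900 lower (16.7%) in tip cells. Without scaling beyond library size the split was 2826 higher and 2175 lower, and with DESeq2 it was 2280 and 2421, so which direction holds more genes depends on the scaling. The median log2 fold change over all tested genes was -0.16, and -0.01 without scaling, a shift that bears on each fold change below. Against Six2 Cited1 cells, 4427 genes (25.4%) passed, 2168 higher (12.5%) and 2259 lower (13.0%), with a median of -0.12. Without scaling the split was 2682 higher and 1613 lower, and the median was 0.02. Subtracting the free RNA profile from every sum left 2295 and 2143 calls. The calls of 40 and 38 of the genes named in the text ended with it, all with the sign they had before, and the median move of their log2 fold change was 0.08 and 0.05. The largest moves were both those of Dcn, 2.681 and 3.603. The part subtracted differed between classes. In replicate 1 it was 1.06% of the tip sum, 10.5% of the Aqp2 sum and 6.07% of the Six2 Cited1 sum. In replicate 2 it was 0.45%, 0.79% and 4.07%. It was largest in endothelium (53.5% and 24.9%) and stroma (40.7% and 10.1%), which enter the same fit and its shared estimate of the spread. The part of these classes in the lost calls was not tested. Whether free RNA made the differences whose calls were lost was not tested.

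Receptors came first. Ret itself, on chromosome 6 (118151745 to 118197718, GRCm38, GENCODE M21 annotation), stood at 261 and 233 CPM in tip cells, and Wnt11 (chromosome 7, 98835112 to 98855195) at 259 and 278 CPM, as the rule required. Ret per cell ran from 2 to 67 UMIs in replicate 1 (median 8.5) and from 2 to 14 in replicate 2 (median 7). Gfra1 (chromosome 19, 58235604 to 58455909), the GDNF co-receptor, was not used by the rule and was found in all 34 and all 19 members. It reached 948 and 759 CPM in tip cells, 151 and 175 CPM in Aqp2 cells and 163 and 220 CPM in Six2 Cited1 cells. Tip values lay above both other classes in both libraries, and the groups did not overlap. Here and below such separation is a description only, since its share over all tested genes was not counted. Gfra1 was 4.59-fold higher than in Aqp2 cells (log2 2.20, SE 0.34, adjusted p = 0.000574) and 3.91-fold higher than in Six2 Cited1 cells (log2 1.97, SE 0.34, adjusted p = 0.00101). After subtraction of the free RNA profile the log2 values were 2.19 and 2.0, with adjusted p = 0.130 and 0.168.

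Outside the tree and the progenitors, Gfra1 was low. It averaged 25.5 CPM in Slc12a1 cells of the loop, 33.3 CPM in Nphs1 podocytes, 11.4 CPM in Col3a1 stroma, 3.49 CPM in Pecam1 endothelium and 2.5 CPM in Slc34a1 cells. With every cell thinned to 3000 UMIs, Gfra1 was found in 91.2% and 84.2% of tip cells, 24.3% and 26.6% of Aqp2 cells and 35.5% and 39.1% of Six2 Cited1 cells. In endothelium, which should lack it, the share was 0.483% and 0.573% (median depths 11680 and 13413 UMIs before thinning), a level read as background. Before thinning, Gfra1 was in 73.8% and 65.4% of Aqp2 cells.

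**Figure D1:**
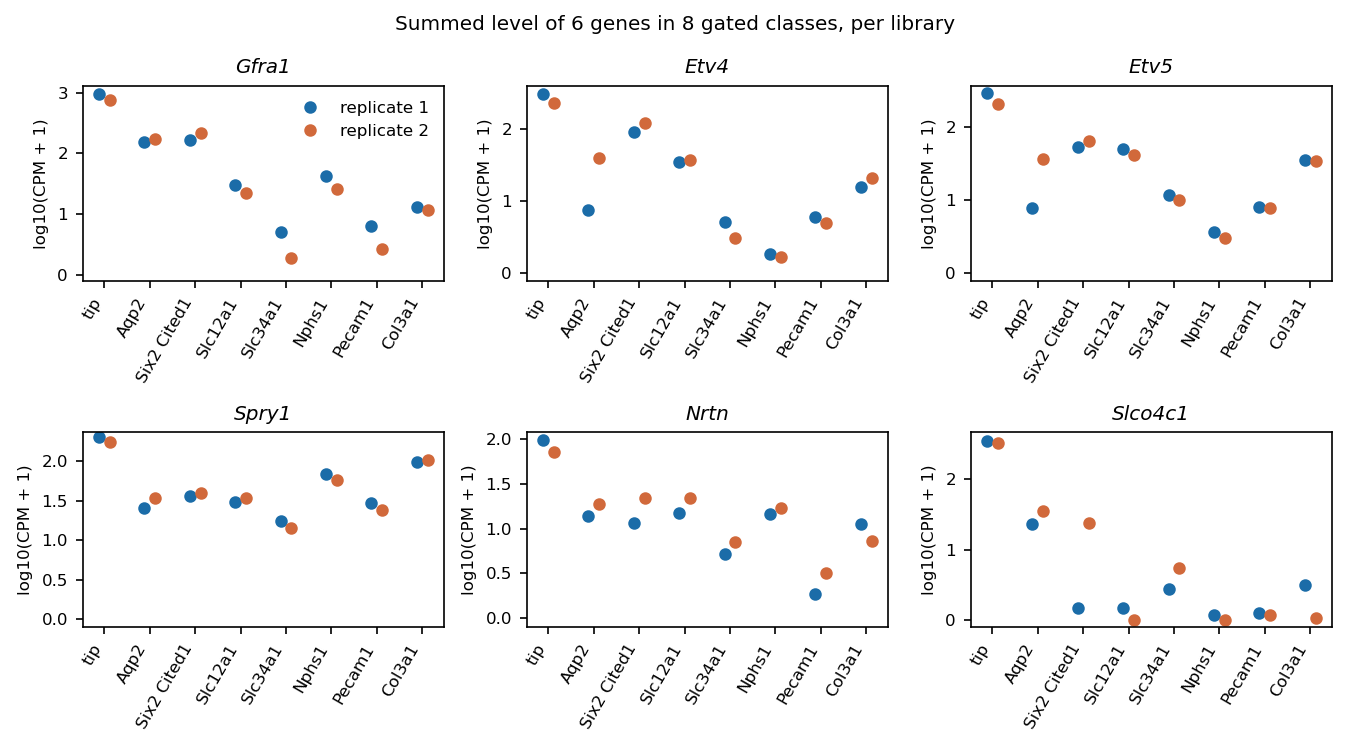
Summed level of Gfra1, Etv4, Etv5, Spry1, Nrtn and Slco4c1, as log10(CPM + 1), in the tip cells and 7 other classes named by the genes that gate them, 1 point per library. The tip points are the highest of each panel in both libraries, while replicate 2 of the Aqp2 class stands above replicate 1 for Etv4 (38.5 against 6.49 CPM) and Etv5 (35.5 against 6.86 CPM).

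Ligands were divided between tip and progenitor. No Gdnf UMI was found in any of the 34 or 19 tip cells, against 46.9 and 26.2 CPM in Six2 Cited1 cells, which is at least 33.2-fold lower (a bound that puts the 2 tip sums together at 3 counts, 1.19 CPM). Neurturin, Nrtn, another GDNF family ligand, went the other way. It stood at 96.3 and 70.7 CPM in tip cells, 13.0 and 17.7 CPM in Aqp2 cells and 10.6 and 20.8 CPM in Six2 Cited1 cells. The groups did not overlap, and Nrtn was higher in tip cells by log2 2.40 (SE 0.35, adjusted p = 0.000367, edgeR) and 2.42 (SE 0.35, adjusted p = 0.000276). It was found in 29 of 34 and 17 of 19 members. Of the 9 family genes listed, 6 could be tested. Against Aqp2 cells 2 were higher and none lower, where 11.7% of all tested genes were higher and 16.7% lower. Against Six2 Cited1 cells, where those shares were 12.5% and 13.0%, 2 were higher and 2 lower. The lower ones were Gdnf and Gfra2, the co-receptor for NRTN. Gfra2 was at 0 in tip cells and 6.71 and 3.28 CPM in progenitors.

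Genes downstream of RET were mostly higher than in Aqp2 cells. Of 20 targets and feedback genes fixed as a list, 17 were higher and none lower than in Aqp2 cells, where 11.7% of all tested genes were higher. The list's median log2 fold change was 2.20. Free RNA subtraction left 12 calls. Members were named with earlier results known, so this count is a description of the list.

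The ETS factors Etv4 and Etv5, which RET signalling needs for branching, led the group. Etv4 was at 304 and 229 CPM in tip cells, against 6.49 and 38.5 CPM in Aqp2 cells, where replicate 2 is the higher. Etv5 was at 284 and 205 CPM, against 6.86 and 35.5 CPM. Neither gene's groups overlapped. The log2 fold changes were 3.57 (SE 0.54, adjusted p = 0.000474) and 3.47 (SE 0.50, adjusted p = 0.000355, edgeR). With the Ret Wnt11 barcodes taken out of the Aqp2 class, its Etv4 was 3.53 and 13.2 CPM. Etv4 was found in 34 of 34 and 18 of 19 members and Etv5 in 33 and 19. Their relative Etv1 was far lower in level, at 12.8 and 24.1 CPM, and was also higher than in Aqp2 cells (log2 2.84).

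Negative feedback genes of receptor tyrosine kinase signalling rose with them. Spry1, a sprouty inhibitor that restrains RET in the ureteric bud, was at 200 and 172 CPM in tip cells against 24.2 and 33.2 CPM in Aqp2 cells (log2 2.55, SE 0.19, adjusted p = 6.83e-06, edgeR). Dusp6, a phosphatase that removes phosphate from ERK, was at 110 and 93.1 CPM against 7.51 and 14.6 CPM (log2 3.05). Spry4 was at 36.4 and 24.1 CPM against 0.741 and 2.33 CPM (log2 4.23). For all 3 the tip libraries lay above the Aqp2 libraries without overlap. Spry2, Spred1 and Spred2, other inhibitors of the same pathway, were higher by log2 1.56, 1.75 and 1.86.

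Other listed targets spanned a wide range. The chemokine receptor Cxcr4 (14.3 and 17.2 CPM) and the transcription factor Myb (21.5 and 34.5 CPM) were low in level yet higher than in Aqp2 cells, by log2 2.74 and 1.71, calls that free RNA subtraction ended. Sox8 rested on replicate 1, at 16.9 CPM there and 1.72 CPM in replicate 2, with the log2 difference from Aqp2 cells 7.10 and 1.39 in the 2 libraries. The 3 listed genes that did not pass were Met, the HGF receptor (175 and 122 CPM against 109 and 98.6 CPM), Lhx1 and Il17rd.

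Against Six2 Cited1 cells, which receive FGF signals that use the same feedback genes, 11 of the 20 were higher and 2 lower, with a median of 1.45. Of all tested genes, 12.5% were higher and 13.0% lower in this comparison. Spry1 (34.8 and 38.0 CPM in progenitors, log2 2.22), Etv5 (51.0 and 63.1 CPM, log2 2.02) and Dusp6 (26.4 and 29.4 CPM, log2 1.74) were higher in tip cells. Etv4 reached 90.7 and 122 CPM in progenitors and did not pass (log2 1.26, SE 0.48, adjusted p = 0.0769, edgeR). With Ret Wnt11 barcodes left out of the other classes, an alternative added later, it did (log2 1.34, adjusted p = 0.0138). It also passed without scaling, without the count filter, with only the 2 classes compared, in the depth band and with the wider Aqp2 limit. It did not pass with DESeq2 (0.132), without the replicate block (0.129) or after free RNA subtraction (0.353). Nor did it with at least 10000 UMIs, the stricter rule, doublets removed or Aqp2 cells with intercalated transcripts left out. Etv1 (60 and 58.5 CPM in progenitors) and Il17rd, a feedback inhibitor of FGF signalling (20 and 19 CPM in tip cells, 118 and 88.2 CPM in progenitors), were lower in tip cells, by log2 -2.06 and -2.56. Free RNA subtraction left 5 of the 13 calls, Etv5 and Dusp6 not among them.

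**Figure D2:**
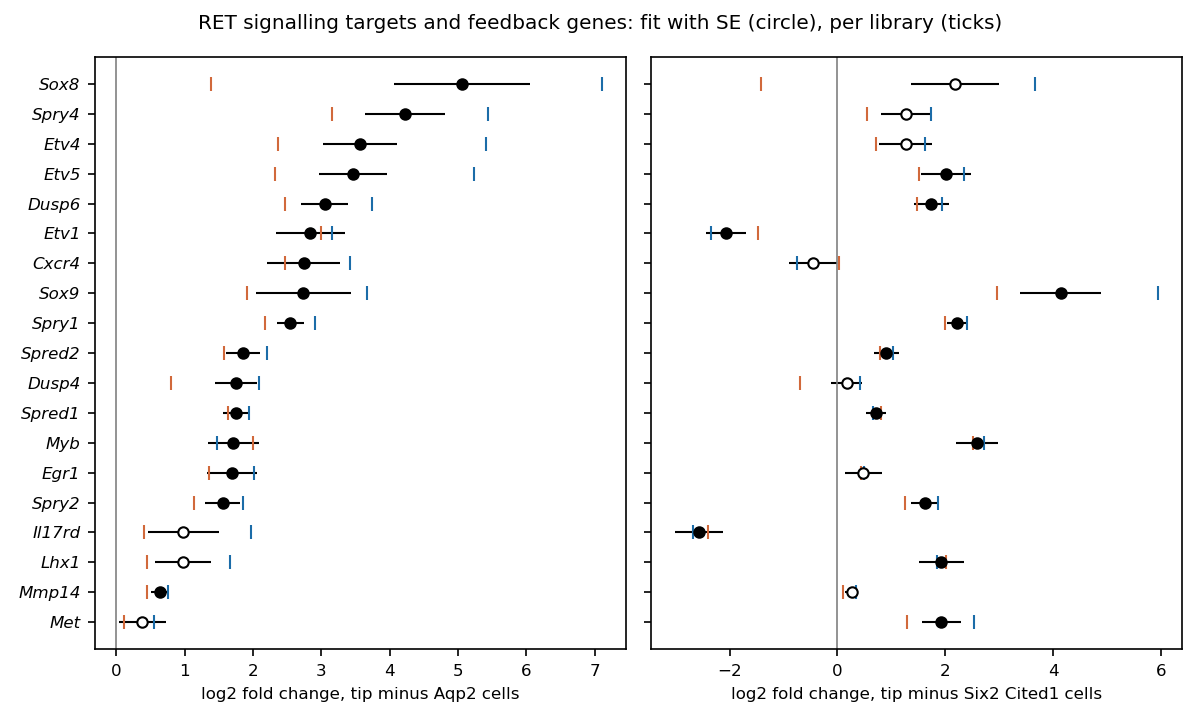
Log2 fold change of 19 of the 20 RET targets and feedback genes, tip cells against Aqp2 cells (left) and against Six2 Cited1 cells (right), with the fitted value and its SE (circles, filled where the adjusted p was at most 0.05) and each library's own value (blue ticks replicate 1, orange ticks replicate 2). On the left 16 circles are filled and all lie above 0, and on the right 10 are filled above 0 and Etv1 and Il17rd below it.

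The promoters of these genes were read for the ETS core CCGGAA on either strand, in windows of 250 bases before to 50 after each RefSeq start (GRCm38.p6). Windows were read for 14 of the 20 listed genes, 16 in all, with 1 chromosome left out for the genes read here. Of the 16, 1 held the core, which is 6.25%. Over all 32851 RefSeq windows, from which no chromosome was left out, the share was 14.9%, so the shares rest on unlike sets. The listed gene with a match was Spry2. Outside the list, the windows of Nrtn and Slco4c1 did not hold it. The Wnt11 window around the gene start given above (chr7:98834862-98835161) did not hold it either. A Wnt11 window at a later start and the window of Gfra1 did. The 250 bases before that later Wnt11 start and before the Gfra1 start are shown because the genes mark the tip cells. Capitals mark the core or its reverse complement, TTCCGG. A match is a run of letters and not a measured binding site, and no match says only that the letters are not in the window.
Wnt11, chr7:98838595-98838844, plus strand: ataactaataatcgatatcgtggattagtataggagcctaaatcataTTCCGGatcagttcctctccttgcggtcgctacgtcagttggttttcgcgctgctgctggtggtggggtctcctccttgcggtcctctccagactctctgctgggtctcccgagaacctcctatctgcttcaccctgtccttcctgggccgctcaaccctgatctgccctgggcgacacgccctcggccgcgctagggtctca
Gfra1, chr19:58455399-58455648, minus strand: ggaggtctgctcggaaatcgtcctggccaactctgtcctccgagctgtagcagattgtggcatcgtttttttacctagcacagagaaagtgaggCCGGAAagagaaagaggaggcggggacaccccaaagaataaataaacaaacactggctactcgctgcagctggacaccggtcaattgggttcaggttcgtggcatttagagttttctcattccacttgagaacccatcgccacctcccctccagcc

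Among the 21 tip genes from the literature, which share 7 genes with the list above, 13 were higher and 2 lower than in Aqp2 cells (median log2 2.55), beside 11.7% and 16.7% of all tested genes. Slco4c1, an organic anion transporter, was at 342 and 329 CPM in tip cells against 22.2 and 33.8 CPM (log2 3.55, SE 0.78, adjusted p = 0.00481, edgeR), a call that DESeq2 and free RNA subtraction did not make. The heparan sulfate sulfotransferases Hs3st3a1 (428 and 293 CPM against 15.7 and 32.5 CPM) and Hs3st3b1 (602 and 219 CPM against 34.2 and 61.1 CPM) were higher by log2 3.84 and 2.84. Sox9, a transcription factor needed for branching, was at 436 and 309 CPM against 31.2 and 71.5 CPM (log2 2.74, adjusted p = 0.0111). Subtraction of the free RNA profile ended the calls of these last 3 genes too, with 7 of the 15 calls of the list left. The protease Adamts18 (134 and 56.9 CPM against 1.3 and 7.73 CPM, log2 4.54) kept its call. The 2 lower genes were Cpm (3.07 and 3.45 CPM against 18.5 and 9.68 CPM, log2 -2.36) and Clcf1 (1.02 and 1.72 CPM against 5.93 and 3.35 CPM, log2 -2.15), and both lost their calls after free RNA subtraction.

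Several genes of the ureteric tree did not pass against Aqp2 cells. Emx2 was at 199 and 185 CPM in tip cells and 175 and 156 CPM in Aqp2 cells (log2 0.04, SE 0.28). Adamts16 was at 190 and 214 CPM against 196 and 183 CPM. Wnt9b, the tree's inducer of nephrons, was used to gate another class and is given without a test: 99.9 and 69.0 CPM in tip cells against 111 and 56.3 CPM. Calb1, used widely as a ureteric tree marker, was at 1326 and 1357 CPM against 912 and 1735 CPM (log2 0.05, SE 0.63). For Adamts16, Wnt9b and Calb1 the libraries of the 2 classes overlap, and for Emx2 the lower tip library lies just above the higher Aqp2 library.

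**Figure D3:**
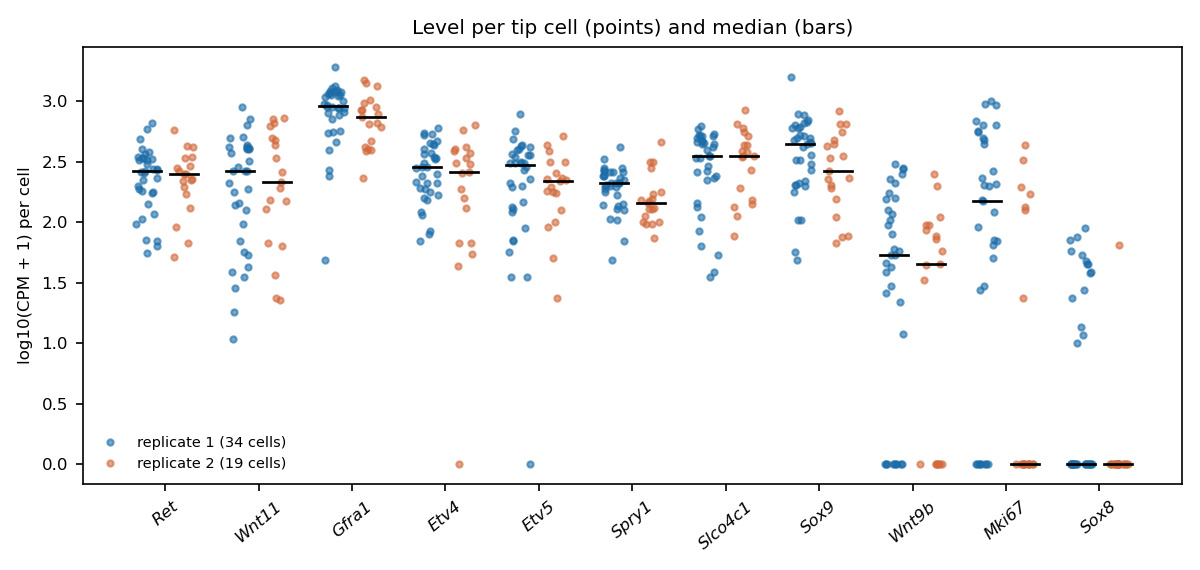
Level of 11 genes in each tip cell, as log10(CPM + 1), with the 34 cells of replicate 1 in blue, the 19 of replicate 2 in orange, and black bars at the medians. Ret and Wnt11 are above 0 by the rule, Gfra1 and Spry1 are above 0 in all 53 cells without being asked for, and Mki67 (26 of 34 and 7 of 19 cells) and Sox8 (15 and 1) are split.

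Of 22 transcription factors of the lineage, 2 were higher and 8 lower than in Aqp2 cells, beside 11.7% and 16.7% of all tested genes. Tfcp2l1, which drives collecting duct maturation, was at 172 and 231 CPM in tip cells and 1018 and 811 CPM in Aqp2 cells (log2 -2.39, SE 0.32, adjusted p = 0.000201, edgeR), a call lost under free RNA subtraction. Elf5, a factor of principal cells, was at 5.12 and 0 CPM against 109 and 93.8 CPM (log2 -4.89). Emx1, unlike its relative Emx2, was found in 2 tip UMIs in all and stood at 94.2 and 97.4 CPM in Aqp2 cells. The 2 that were higher were Hoxb7, whose promoter is used to drive transgenes in the tree (279 and 310 CPM against 98.5 and 120 CPM, log2 1.26), and Bcl11a (44.1 and 39.7 CPM against 4.45 and 8.38 CPM, log2 2.55, a call lost after free RNA subtraction). Other Hox genes went the other way. Hoxd11 was at 11.8 and 3.45 CPM against 52.3 and 55.6 CPM and Hoxd10 at 1.54 and 3.45 CPM against 43.5 and 41.9 CPM (log2 -2.65 and -4.55), and both were also lower than in Six2 Cited1 cells. Pax2, Pax8, Grhl2, Ehf and Tfap2a did not pass against Aqp2 cells. Against Six2 Cited1 cells 13 of the 22 were higher and 4 lower, beside 12.5% and 13.0% of all tested genes. Ehf (104 and 116 CPM against 0.949 and 4.68 CPM, log2 5.32) and Bcl11a (log2 5.20) led the higher ones.

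Collecting duct genes were mostly lower. Of 29 tested genes of trunk and collecting duct, 23 were lower and 2 higher than in Aqp2 cells, where 16.7% of all tested genes were lower, with a median of -2.86. The class was chosen by Aqp2, and tip cells by its absence. The water channel Aqp3 was at 3.59 and 6.90 CPM in tip cells and 355 and 384 CPM in Aqp2 cells (log2 -6.44, SE 0.52, adjusted p = 8.51e-06, edgeR). Fxyd4, a regulator of the sodium pump, was at 16.4 and 19 CPM against 806 and 853 CPM (log2 -5.67). The epithelial sodium channel was lower in all 3 subunits: Scnn1a at 2.56 and 3.45 CPM against 118 and 118 CPM, Scnn1b at 46.1 and 63.8 CPM against 416 and 417 CPM, and Scnn1g at 23.1 and 41.4 CPM against 312 and 262 CPM. No library of one class reached those of the other in any of these genes.

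The size of the difference varied between subunits. The log2 difference was -5.48 (SE 0.38) for Scnn1a, -3.12 (SE 0.26) for Scnn1b and -3.46 (SE 0.45) for Scnn1g, and the difference between subunits was not tested. Hsd11b2, which protects the mineralocorticoid receptor from glucocorticoid, was at 7.17 and 19 CPM against 226 and 304 CPM (log2 -4.78), and the receptor itself, Nr3c2, at 55.9 and 69.0 CPM against 369 and 296 CPM (log2 -2.63). Wnt7b, the trunk ligand that elongates the medulla, was at 4.61 and 3.45 CPM against 75.7 and 52.2 CPM (log2 -4.10). Keratins differed by degree, with Krt7 lower by log2 -3.26, Krt19 by -2.86, and Krt8 and Krt18 by -1.07 and -1.05, the last 3 without a call after free RNA subtraction, which left 13 of the 25 calls.

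The 2 exceptions were Lcn2 and Krt23. Lcn2, a secreted lipocalin, was at 470 and 552 CPM in tip cells and 10.2 and 39.3 CPM in Aqp2 cells (log2 4.46, SE 0.91, adjusted p = 0.00314, edgeR), and it was found in all 53 members. Krt23 was at 279 and 228 CPM against 14.4 and 21.8 CPM (log2 3.78). In both the tip libraries lay far above the Aqp2 libraries, and both calls were lost under free RNA subtraction. Cldn3, Cldn7 and Calb1 did not pass. Against Six2 Cited1 cells, which are not epithelial, 20 of the 29 were higher and 1, Hsd11b2, lower (median 3.70). The shares over all tested genes were 12.5% higher and 13.0% lower there.

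**Figure D4:**
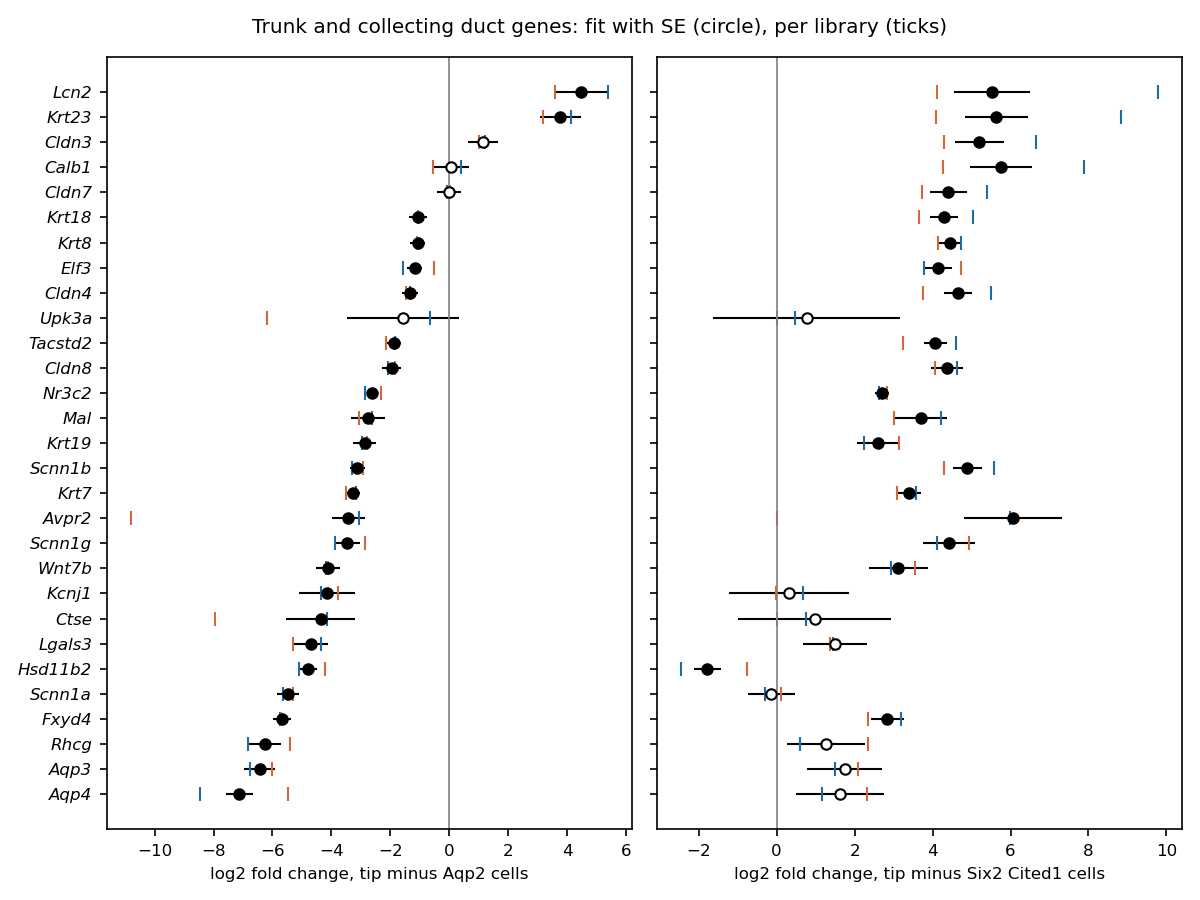
Log2 fold change of 29 trunk and collecting duct genes, tip cells against Aqp2 cells (left) and Six2 Cited1 cells (right), drawn as for the RET targets. On the left 23 filled circles lie below 0 and Lcn2 and Krt23 above it, and on the right 20 lie above 0.

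Genes were also chosen by size of difference, in the lists or not, among called genes with at least 20 CPM in both libraries of the higher class. Foxi1, Rspo1, Bmper and Osr1, given below, are also list members. Higher than in Aqp2 cells were Cytl1, a small secreted protein (51.8 and 53.5 CPM against 0.371 and 3.26 CPM), Col9a3, a collagen chain (41.5 and 70.7 CPM against 0.927 and 3.35 CPM), Kcnn4, a calcium-activated potassium channel (90.2 and 67.3 CPM against 0.741 and 6.14 CPM), and Gabrg1, a GABA receptor subunit (32.8 and 24.1 CPM against 1.11 and 1.77 CPM). Cd79a, known as a B cell receptor component, was at 24.6 and 27.6 CPM against 0.371 and 1.40 CPM (log2 4.85), and the leukocyte gene Ptprc was at 28.7 and 32.8 CPM. The part of other cells in this was not tested, and the call of Cd79a was lost under free RNA subtraction.

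At the other end stood genes with no tip UMI in either library. Trpv5, the calcium channel of the connecting tubule, was at 65.4 and 34.2 CPM in Aqp2 cells, at least 42.0-fold lower in tip cells, a call lost after free RNA subtraction. Hmx2, a homeobox factor, was at 35.8 and 49.8 CPM (at least 36.1-fold) and Dmrt2 at 40.4 and 23.1 CPM (at least 26.8-fold). Atp6v1c2, a proton pump subunit, was at 116 and 56.7 CPM (at least 72.9-fold), and Foxi1, the factor of intercalated cells, left 1 tip UMI in all against 99.2 and 74.1 CPM, a ratio of 219 with a counting interval of 39.3 to 8668. Atp6v1c2 lost its call when Aqp2 cells with intercalated transcripts were left out, a filter that uses Foxi1 itself. Defb1, a defensin, was at 3.59 and 8.62 CPM against 893 and 942 CPM (log2 -7.62). Against progenitors, genes with no tip UMI were Rspo1, an R-spondin (189 and 151 CPM in Six2 Cited1 cells, at least 148-fold lower), Bmper (186 and 156 CPM), Tnc (94.9 and 93.6 CPM) and Osr1 (55.3 and 32.2 CPM). Higher than in progenitors were Rasgrf2 (43.0 and 29.3 CPM against 0.0678 and 0.819 CPM, log2 6.52), Ecrg4 (149 and 169 CPM against 0.203 and 6.44 CPM) and the GABA receptor subunit Gabra2 (101 and 70.7 CPM against 0.271 and 3.74 CPM).

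Of 41 Wnt signalling genes tested, 12 were higher and 8 lower than in Aqp2 cells (median 0.21), beside 11.7% higher and 16.7% lower over all tested genes. Among genes that are targets and feedback inhibitors of beta-catenin signalling, Axin2 was at 47.7 and 46.6 CPM against 9.82 and 6.79 CPM (log2 2.29, SE 0.26, adjusted p = 7.46e-05, edgeR). Nkd1 was at 48.2 and 41.4 CPM against 2.41 and 5.58 CPM (log2 3.34) and Znrf3 at 282 and 317 CPM against 146 and 149 CPM (log2 0.85, not called after free RNA subtraction). The nuclear factor Tcf7 was at 44.1 and 17.2 CPM against 5.38 and 6.14 CPM (log2 2.45). Tip libraries were the higher in all 4 genes. Receptors that WNT11 and WNT5A can use were also higher: Ror1 at 404 and 357 CPM against 107 and 131 CPM (log2 1.51) and Ror2 at 146 and 87.9 CPM against 20.7 and 30.4 CPM (log2 2.13, not called after free RNA subtraction). Lower were the ligand Wnt7b given above, the receptor Fzd7 (6.66 and 3.45 CPM against 48.0 and 44.9 CPM, log2 -3.15) and Wls, the carrier of secreted Wnts (150 and 160 CPM against 389 and 306 CPM, log2 -1.34). Against Six2 Cited1 cells 14 were higher and 10 lower, beside 12.5% and 13.0% of all tested genes. Wnt5a (36.4 and 25.9 CPM against 2.24 and 3.16 CPM, log2 3.48) and Rnf43 (118 and 94.8 CPM against 1.22 and 4.45 CPM, log2 5.22) were higher in tip cells.

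Of 16 FGF pathway genes 5 were higher and 2 lower than in Aqp2 cells, where 11.7% of all tested genes were higher and 16.7% lower. Fgfr2, the FGF receptor needed in the ureteric bud, was at 312 and 362 CPM against 541 and 366 CPM, so the groups adjoin, and its call (log2 -0.60, adjusted p = 0.00962, edgeR) was lost without scaling. Fgfr4 was at 36.9 and 77.6 CPM against 9.36 and 21.3 CPM (log2 1.65). Against progenitors, where the shares over all tested genes were 12.5% and 13.0%, 5 were higher and 6 lower, with Fgfr1 at 59.4 and 39.7 CPM against 308 and 308 CPM (log2 -2.71, a call lost after free RNA subtraction). Of 27 BMP genes 4 were higher and 7 lower than in Aqp2 cells, beside the same background. The BMP response genes Id1 (56.4 and 62.1 CPM against 202 and 103 CPM), Id2 and Id3 (244 and 169 CPM against 729 and 556 CPM) were lower by log2 -1.55, -1.79 and -1.77, of which the call of Id2 was lost after free RNA subtraction. Their relative Id4 was higher (203 and 176 CPM against 122 and 67.2 CPM, log2 0.86, adjusted p = 0.0319), a call lost in 3 of the alternatives. Bambi, a decoy receptor, was at 30.2 and 37.9 CPM against 9.27 and 11.4 CPM (log2 1.51).

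Of 18 retinoid handling genes, 5 were higher and 2 lower than in Aqp2 cells, beside 11.7% and 16.7% of all tested genes. Stra6, the retinol uptake receptor, was at 54.8 and 53.5 CPM against 0 and 4.84 CPM in Aqp2 cells (log2 4.58) and 6.91 and 10.1 CPM in progenitors (log2 2.63). Cyp26b1, which degrades retinoic acid, was low but higher than in Aqp2 cells (12.8 and 10.3 CPM against 0.649 and 1.58 CPM), a call that ended after free RNA subtraction.

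Notch pathway genes carry the allele of this cross. Rbpj itself was at 89.7 and 65.5 CPM in tip cells, 58.3 and 57.9 CPM in Aqp2 cells and 102 and 104 CPM in Six2 Cited1 cells, and passed in neither comparison (log2 0.28, SE 0.19, adjusted p = 0.336, and -0.54, SE 0.19, adjusted p = 0.0599, edgeR). Reads at the 3' end do not show whether the conditional allele was recombined. Of 21 genes 2 were higher and 5 lower than in Aqp2 cells, which is 33.3% called against 28.4% of all tested genes. Lfng, a glycosyltransferase that modifies Notch receptors, was at 9.22 and 12.1 CPM against 0.834 and 2.98 CPM (log2 2.33), and the ligand Dll1 at 1.54 and 1.72 CPM against 10.5 and 14.6 CPM (log2 -3.19). Both calls ended when Aqp2 cells with intercalated transcripts were left out. The target Nrarp was at 2.05 and 10.3 CPM against 14.5 and 20.8 CPM (log2 -2.16, lost after free RNA subtraction).

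Of 33 axon guidance genes 9 were higher and 9 lower than in Aqp2 cells, where 11.7% of all tested genes were higher and 16.7% lower. Sema6a, a transmembrane semaphorin, was at 531 and 500 CPM in tip cells, 29.2 and 64.7 CPM in Aqp2 cells and 17.3 and 46.1 CPM in progenitors (log2 3.32 and 3.93). The netrin receptor Unc5c was at 280 and 288 CPM against 28.4 and 55.1 CPM in Aqp2 cells (log2 2.65), and Robo1 at 439 and 347 CPM against 71.5 and 110 CPM (log2 1.92). Robo2, the SLIT receptor that restricts where the bud forms, was at 171 and 107 CPM in tip cells and at 2885 and 3084 CPM in progenitors. Of 30 adhesion and basement membrane genes 2 were higher and 14 lower than in Aqp2 cells, beside the same background, and free RNA subtraction left 3 of the 16 calls. Cdh3 (159 and 98.3 CPM against 44.8 and 39.8 CPM) and Frem2 (392 and 354 CPM against 94 and 104 CPM) were higher, by log2 1.5 and 1.74, and the collagen IV chains Col4a3 and Col4a4 (21.0 and 24.1 CPM against 236 and 187 CPM) lower by log2 -2.72 and -3.40. None of these 4 calls was among the 3 left. Trp63, a factor of basal epithelia, was at 58.4 and 43.1 CPM in tip cells and 3.61 and 5.49 CPM in Aqp2 cells (log2 3.39, SE 0.47, adjusted p = 0.000279), while the uroplakins Upk1b and Upk2 and Krt5 were at 0 in both tip libraries.

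Cell cycle genes separated tip cells from Aqp2 cells. Of 42 S phase genes 38 were higher and none lower (median log2 1.39), and of 52 G2/M genes 44 were higher and none lower (median 1.53), where 11.7% of all tested genes were higher. With only cells of 20000 to 60000 UMIs in every class, 12 and 16 tip cells remained and the counts of calls were 38 and 41. With Aqp2 cells that hold intercalated transcripts left out they were 30 and 35. Mcm5, a replicative helicase subunit, was at 51.8 and 117 CPM against 11.4 and 29.9 CPM (log2 1.80, SE 0.36, adjusted p = 0.00272, edgeR). Cdk1, the mitotic kinase, was at 132 and 93.1 CPM against 21.0 and 31.8 CPM (log2 1.94), and Hmgb2 at 1245 and 1133 CPM against 327 and 432 CPM (log2 1.46). Mki67 differed between the tip libraries, at 295 and 63.8 CPM, and replicate 2 adjoined its Aqp2 cells (46.8 and 59.6 CPM), so its call (log2 1.51, adjusted p = 0.0255) rests on replicate 1. It was also lost without the replicate block (adjusted p = 0.0528), after free RNA subtraction (0.127) and with the Aqp2 cells that hold intercalated transcripts left out (0.117).

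Against Six2 Cited1 cells few cell cycle genes passed: 1 of the 42 S phase genes was higher and none lower, and 5 of the 52 G2/M genes were higher and 1 lower, with medians of 0.12 and 0.10 against -0.12 over all tested genes. Of all tested genes, 12.5% were higher and 13.0% lower. The members called were Tyms in the first list, and Ccnb2, Tubb4b, Rangap1, Lbr and Hmgb2 (higher) and Anp32e (lower) in the second.

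Cells were also counted 1 by 1 after thinning to 3000 UMIs. The 94 cell cycle genes gave a median of 23 UMIs per tip cell in each library, ranging from 2 to 78 in replicate 1 and from 12 to 46 in replicate 2. Medians were 10 and 10 in Six2 Cited1 cells, 5 and 6 in Aqp2 cells and 4 and 5 in Nphs1 podocytes, which have left the cycle. At least 3 such UMIs were present in 33 of 34 tip cells (97.1%) and in 19 of 19 (100%), but also in 83.0% and 80.3% of podocytes, so this share is near its ceiling. Thinned to 1000 UMIs, it was 91.2% and 89.5% in tip cells, 68.0% and 62.3% in Six2 Cited1 cells, 31.0% and 41.0% in Aqp2 cells and 26.0% and 21.0% in podocytes. Tip cells had the highest share of the 4 classes at that depth in both libraries. Class sums, in which deep cells weigh more, gave a smaller gap to Six2 Cited1 cells than the medians per cell. S phase genes summed to 2615 and 3883 CPM in tip cells against 2382 and 2754 CPM in Six2 Cited1 cells. G2/M genes summed to 6547 and 4092 CPM against 4774 and 3957 CPM.

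**Figure D5:**
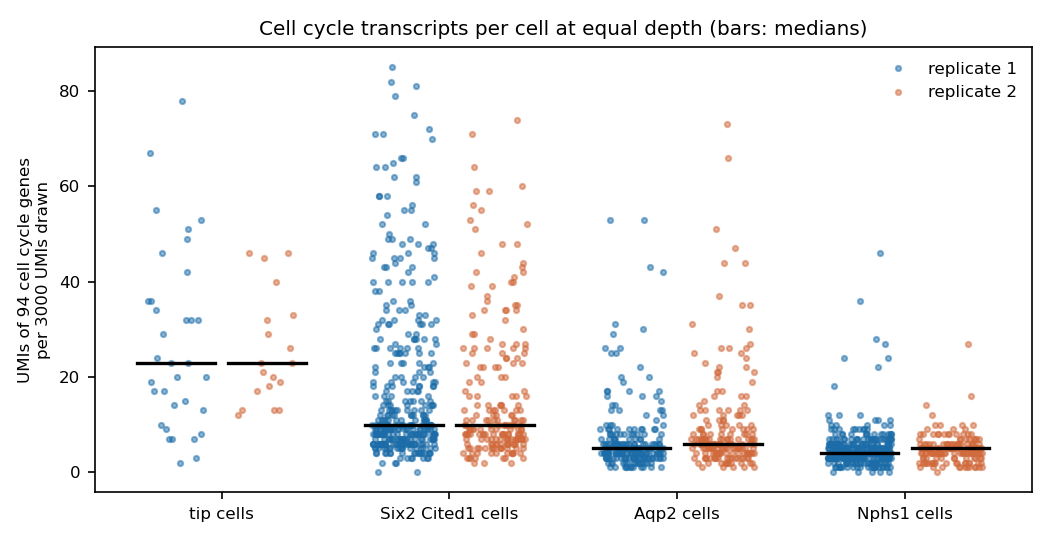
UMIs of 94 S and G2/M genes in each cell after drawing 3000 UMIs per cell, in tip cells, Six2 Cited1 progenitors, Aqp2 cells and Nphs1 podocytes, with replicate 1 in blue, replicate 2 in orange and medians as black bars. The tip medians (23 and 23) lie above those of the progenitors (10 and 10), the Aqp2 cells (5 and 6) and the podocytes (4 and 5), while single cells of all 4 classes overlap.

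Of 15 genes that respond to cell dissociation, 2 were higher and 8 lower than in Aqp2 cells, beside 11.7% and 16.7% of all tested genes, and free RNA subtraction left 0 calls. Fos was at 0 in both tip libraries and at 5.0 and 2.23 CPM in Aqp2 cells, and Hspa1a was found in a single tip UMI. Egr1, which is also a target of ERK signalling, was at 35.4 and 24.1 CPM against 7.97 and 8.19 CPM, with 113 and 33.4 CPM in free RNA. The median mitochondrial share was 4.70% and 4.68% in tip cells and 8.46% and 8.79% in Aqp2 cells, and its part in these differences was not tested.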

How the data were processed

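UMI counts per gene and barcode were deposited by the authors as unfiltered matrices, made with Cell Ranger 4 per the file headers; the submitters' processing notes name Cell Ranger 6.0.1 and mm10. Barcodes were filtered and gated by the limits given in the text, and raw counts were summed per library and class. Sums of 8 classes, each with at least 10 cells per library (20 were planned), entered 1 fit in edgeR 4.0.16 (R 4.3.3) with TMM scaling, filterByExpr and the library as a block, since classes of 1 library come from the same sample. Genes used in any gate were not tested. DESeq2 1.42.0 was an alternative. CPM are counts per 1000000 UMIs of a class. Scrublet (scanpy 1.11.5) doublets, 245 and 142 barcodes, were kept except in 1 alternative. Intervals cover counting error only.

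Named genes were list members taken by role and, per comparison and direction, the 10 called genes with the largest log2 fold change, the same sign in both libraries and at least 20 CPM in both libraries of the higher class, leaving out predicted, mitochondrial, ribosomal protein and gate genes. The members, lists and rules were chosen with earlier results of these data known. In simulated counts for the comparison with Aqp2 cells (17066 genes), the test recovered 61.1% of 108 genes changed by log2 1 and 90.2% of 92 changed by log2 2, with 10 false calls among 159. The simulated spread followed the fitted trend, with none particular to a gene. Only genes above a minimum level were changed, and all others were left equal. In the data 28.4% of genes passed, so these rates need not hold there. Of 32285 gene identifiers, 32158 were found in GENCODE M21. Alternatives on Ret Wnt11 barcodes, intercalated transcripts, the depth band and a wider Aqp2 limit were added after seeing the data. Some genes are not reported here.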

Additional observations from a re-analysis of the deposited data

How the results depend on the processing

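The counts of called genes stayed within 1.5 times their value under every alternative run except subtraction of the free RNA profile, which left 2295 genes against Aqp2 cells and 2143 against Six2 Cited1 cells. Without the replicate block they were 4066 and 3807. The share of tip cells was 0.684% with at least 10000 UMIs, 0.347% with the stricter Ret and Wnt11 limits and 0.713% with Aqp2 up to 100 CPM allowed, and 0.452% to 0.615% with 1 library left out. The cell cycle share was 90.3% at 1000 UMIs and 97.1% to 100% with 1 library left out. Mki67 against Aqp2 cells was -0.10 (log2) without replicate 1 and 2.52 without replicate 2, and Atp6v1g3 was 0.65 with Aqp2 cells that hold intercalated transcripts left out; the cause was not tested beyond that construction. With 1 library left out no residual degrees of freedom remain, so no calls could be counted. The planned comparison with trunk cells was not run, since 10 and 9 cells met that rule. With 19 tip cells in replicate 2, low genes there rest on few UMIs.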
